A study of Rattus norvegicus with 48 samples.

Results

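Leukocyte miRNAs were followed through serum and ulna bone of rats. They were chosen by name, as the rows of rno-miR-142-3p, rno-miR-142-5p, rno-miR-223-3p, rno-miR-150-5p, rno-miR-150-3p, rno-miR-155-5p and rno-miR-342-3p in each library (the rat prefix rno is left out from here on), and make up 7 of the 763 mature miRNAs listed. Small RNA was sequenced from 32 serum and 16 ulna bone libraries of male rats. ZDF rats (fa/fa) carry a homozygous mutation of the leptin receptor and develop type 2 diabetes, whereas Zucker lean rats served as wild type (WT). All rats, controls included, had a surgical defect of the femur, received a chow rich in fat and carbohydrate, and were sampled after 12 weeks of treatment. The WT sera comprised 5 libraries from placebo, 5 from PTH (parathyroid hormone) and 4 from anti-sclerostin (an antibody to the bone formation inhibitor sclerostin), and the ZDF sera 5 from placebo, 5 from PTH, 4 from anti-sclerostin and 4 from insulin. Bone was sequenced for 4 groups of 4 libraries, which combined either genotype with placebo or PTH. The labels name ulna bone and do not name marrow, and no leukocyte counts of these rats are used here.

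MiR-142 is made in nearly all blood cells and hardly elsewhere. Its hairpin precursor is cut into a duplex of a 5p and a 3p arm, of which the cell usually keeps one and degrades the other. MiR-223 is abundant in granulocytes and monocytes, miR-150 in mature lymphocytes, miR-155 in activated lymphocytes and macrophages, and miR-342 in lymphocytes, where it is transcribed with its host gene Evl. Serum carries miRNAs released from blood cells and from solid organs, whereas bone holds the marrow with immature and mature blood cells beside osteoblasts and osteocytes. In bulk samples such as these, fewer leukocytes and less miRNA per leukocyte cannot be told apart.

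The mature sequences below identify the molecules counted and show that the arms of miR-142 carry different seeds, the bases by which a miRNA pairs with its targets. They are written 5′ to 3′ with the seed, bases 2 to 8, in capitals, and were found in RefSeq (GRCr8) for 5 of the 7 miRNAs; miR-150-5p and miR-150-3p are given by name only.
miR-142-5p: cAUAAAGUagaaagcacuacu
miR-142-3p: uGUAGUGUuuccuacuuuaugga
miR-223-3p: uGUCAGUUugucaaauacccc
miR-155-5p: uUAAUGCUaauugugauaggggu
miR-342-3p: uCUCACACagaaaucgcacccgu
No seed was shared among the 5. In GRCr8, both arms of miR-142 lie on the plus strand within Mir142, the 5p arm at chr10:73055119-73055139 and the 3p arm at chr10:73055155-73055177, where the annotation also places the gene Tspoap1. MiR-223-3p lies at chrX:65151450-65151470 within the locus LOC120099372, miR-155-5p at chr11:37261117-37261139 within its host transcript Mir155hg, and miR-342-3p at chr6:133329715-133329737 within Evl and LOC102555052. Mir150 is annotated at chr1:104741487-104741571 and overlaps no other gene. These positions are not those of the genome build used for mapping, which was Rnor 6.0.

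The libraries held 28015 to 205664 miRNA reads in serum and 41627 to 1398702 in bone, and all counts below are subject to that depth. Libraries of the same group differed by more than counting noise in all 82 pairs. Mesenchymal and osteoblast miRNAs (miR-199a and miR-214) took 1.23 to 4.74% of the miRNA reads in bone and 0.0167 to 0.228% in serum. Striated muscle miRNAs took 5.32 to 34% of the reads in bone, so that all bone libraries also carried RNA of muscle. Most of that share was miR-133a-3p alone (4.35 to 33.1%), so that its size depends on how well this sequence was captured. Erythrocyte miRNAs took 2.56 to 27.3% in serum and 0.659 to 1.36% in bone, and liver miRNAs (miR-122 and miR-802) at most 0.458% in serum and 0.00122% in bone. The leukocyte miRNAs made up 1.19 to 8.17% of the miRNA reads in serum (median 3.53%) and 0.364 to 1.01% in bone (median 0.539%).

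MiR-223-3p was the most abundant leukocyte miRNA in both tissues. Its median level was 17524 RPM (reads scaled to a total of 1000000 miRNA reads per library) in serum, where it ranked 12 among all miRNAs, and 2313 in bone, where it ranked 56. MiR-142-5p (4654), miR-342-3p (4197) and miR-150-5p (3702) followed in serum with medians close to each other and overlapping ranges. MiR-142-3p (462), miR-150-3p (370) and miR-155-5p (66.8) were scarcer there. In bone the order after miR-223-3p was miR-142-3p (1267), miR-150-5p (1216), miR-342-3p (359), miR-142-5p (185), miR-155-5p (68.5) and miR-150-3p (21.6), so that the miR-142 arms changed places. Levels of different miRNAs depend on how well each sequence is captured in the library, and are compared here only to give the order of the reads.

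**Figure D1:**
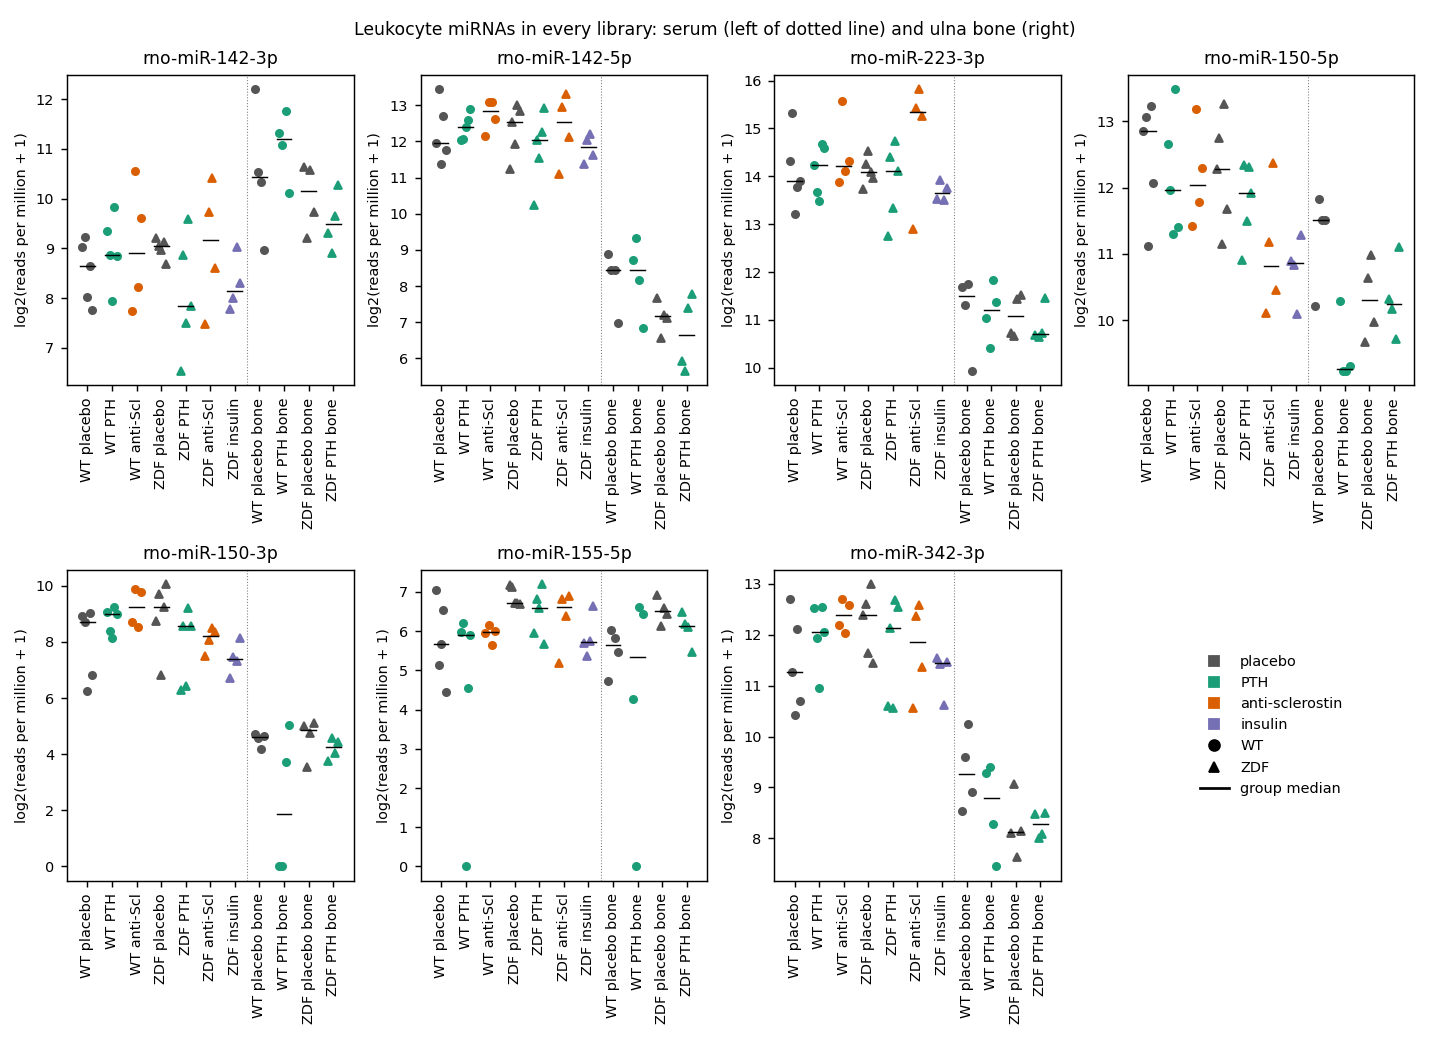
Levels of the 7 leukocyte miRNAs as log2(RPM + 1) on the vertical axes, with 1 point per library, grouped by treatment on the horizontal axes (serum left and ulna bone right of the dotted line) and with lines at the group medians. MiR-142-3p lies higher in bone than in most serum libraries, whereas miR-142-5p, miR-223-3p, miR-150-3p and miR-342-3p lie lower in bone.

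The first question was how the leukocyte miRNAs differ between serum and bone of rats with the same genotype and treatment. MiR-142-3p was higher and miR-142-5p, miR-223-3p, miR-150-5p and miR-342-3p were lower in bone in all 4 comparisons (edgeR quasi-likelihood test, FDR < 0.2, where FDR is the Benjamini-Hochberg adjusted p over all miRNAs tested). Most miRNAs differ between these tissues. In WT placebo rats 80.6% of the miRNAs tested passed (41.9% higher and 38.7% lower in bone), as did 86.1% in ZDF placebo (46% and 40.1%), 79.9% in WT PTH (37.5% and 42.4%) and 81.6% in ZDF PTH (46.3% and 35.3%). Against that background 6 of 7 leukocyte miRNAs tested passed in WT placebo, 6 of 7 in ZDF placebo, 6 of 6 in WT PTH and 5 of 5 in ZDF PTH, each time 1 higher and the others lower. Except in ZDF PTH, these counts and the medians below include miR-150-3p, which passed the filter for low counts through serum only. Its direction was thus largely fixed in advance. The median log2 fold change of the leukocyte miRNAs was -2.49, -2.99, -3.56 and -2.87 in these comparisons, against 0.10, 0.21, -0.07 and 0.42 over all miRNAs tested. Since no label pairs bones with sera, the tissues were compared as independent samples, although most bones came from rats that also gave serum.

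The arms of miR-142, which mark leukocytes of all lineages, went in opposite directions. In WT placebo rats, miR-142-3p was at 4742, 1484, 1289 and 498 RPM in the 4 bones and at 525, 597, 260, 400 and 216 in the 5 sera. Only the lowest bone overlapped with the sera, and the log2 fold change was 2.15 (SE 0.57, FDR = 0.0034). MiR-142-5p was at 477, 349, 348 and 125 RPM in the same bones and at 3987, 11261, 2634, 6697 and 3474 in the sera. Here the groups were far apart, with a log2 fold change of -4.30 (SE 0.54, FDR = 6.8e-06). MiR-142-3p was higher in bone by 1.14 (SE 0.34) in ZDF placebo, 1.69 (SE 0.58) in WT PTH and 1.44 (SE 0.55) in ZDF PTH on the log2 scale, with FDR = 0.0069, 0.010 and 0.026. MiR-142-5p gave -5.19 (SE 0.44), -4.37 (SE 0.69) and -4.83 (SE 0.65) in these groups, and no bone reached the level of any serum of its group. 

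The ratio of the arms within a library does not depend on library size, and was examined after these values were seen. MiR-142-5p had more reads than miR-142-3p in all 32 sera, and fewer in all 16 bones. The log2 ratio of 3p to 5p ranged from -5.05 to -1.99 in serum (median -3.47) and from 1.72 to 3.57 in bone (median 2.62). In linear terms, the median serum held 11.1 reads of the 5p arm for each read of the 3p arm, and the median bone 6.14 reads of the 3p arm for each read of the 5p arm. The sign was the same in all 7 serum groups and all 4 bone groups, and no library of any genotype or treatment crossed the line of equal reads. The scarcer arm had 5 to 132 reads in a serum library (3p) and 13 to 211 reads in a bone (5p).

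The shift between tissues was then set beside that of all hairpins with at least 100 reads of each arm summed over each tissue, of which there were 37. The median size of the shift in log2(3p/5p) was 1.33, and that of miR-142, 6.09, ranked first. Let-7d, a member of the let-7 family, was next with -4.64. In 9 hairpins the tissues differed in which arm had the higher median, in 2 (miR-142 and the endothelial miR-126a) the ratios did not overlap between serum and bone, and in 1, miR-142, every serum library favored one arm and every bone library the other. MiR-150 kept its arm: miR-150-5p exceeded miR-150-3p in all 48 libraries, with a median log2 ratio of 3.42 in serum and 5.87 in bone. MiR-223-3p exceeded miR-223-5p by a median of 8.35 in serum and 5.81 in bone on the same scale. The remaining arms, miR-155-3p (1 read in all 48 libraries) and miR-342-5p (at most 22 reads in a library), were too scarce for such a ratio.

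**Figure D2:**
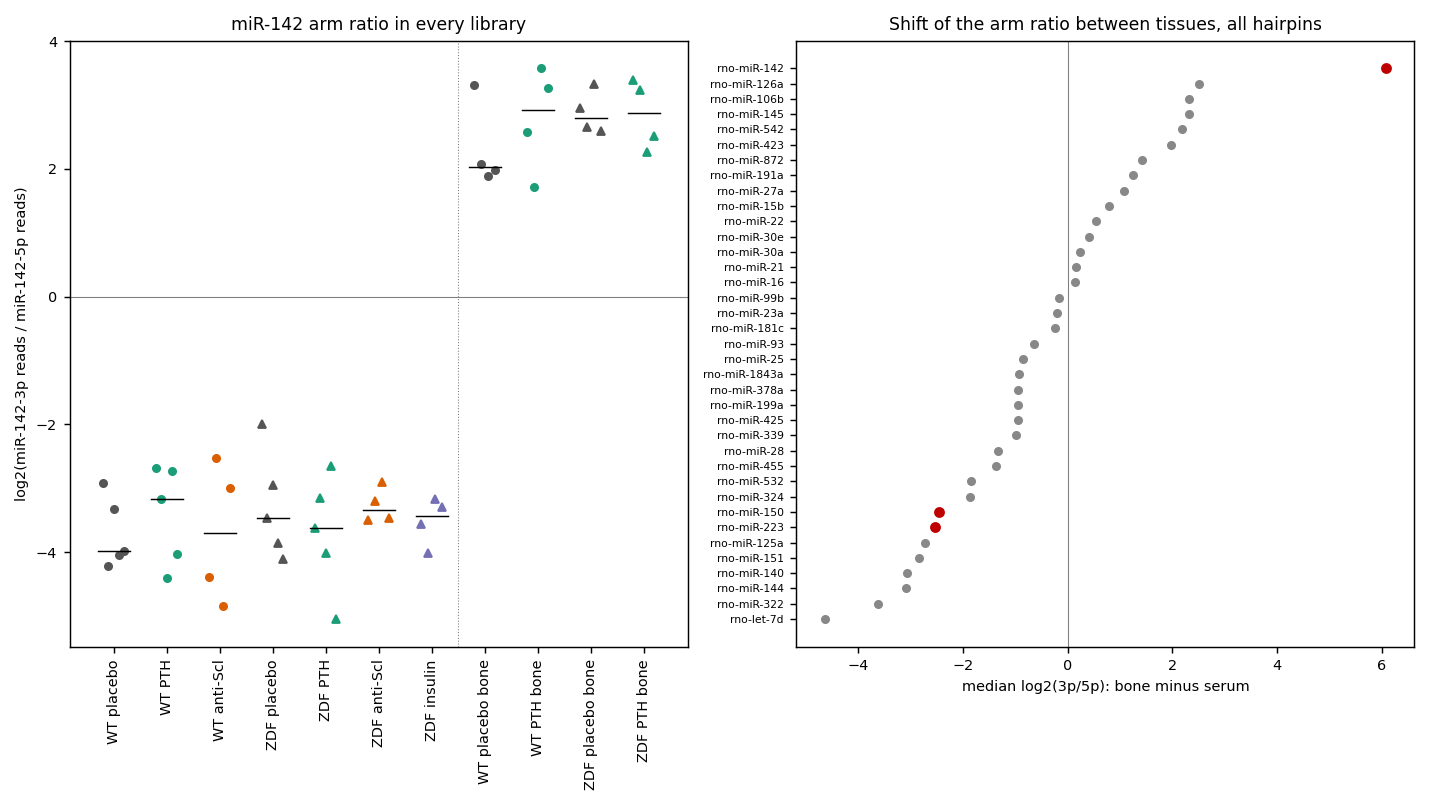
Left, log2 ratio of miR-142-3p to miR-142-5p reads (vertical axis) in each library by group, with lines at group medians: all serum libraries lie below 0 and all bone libraries above. Right, bone minus serum difference of the median log2(3p/5p) ratio (horizontal axis) for 37 hairpins, with miR-142, miR-150 and miR-223 in red: miR-142 lies at 6.09, beyond all others.

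MiR-223-3p, the myeloid member, was lower in bone in all 4 comparisons. In WT placebo rats it was at 3292, 2534, 3440 and 974 RPM in bone and at 20368, 40762, 9452, 13994 and 15288 in serum. The groups did not overlap, with a log2 fold change of -3.18 (SE 0.51, FDR = 5.3e-05). The other 3 comparisons gave -2.99 (SE 0.34), -3.38 (SE 0.59) and -2.87 (SE 0.46) for ZDF placebo, WT PTH and ZDF PTH, again without overlap of the libraries.

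Of the lymphoid members abundant enough to be tested within bone, miR-342-3p differed most between bone and serum. MiR-342-3p was at 369, 770, 1210 and 483 RPM in WT placebo bone and at 6676, 2468, 1375, 4403 and 1664 in serum. It was lower in bone by log2 fold changes of -2.49 (SE 0.54) in WT placebo to -3.86 (SE 0.49) in ZDF placebo, and its bones and sera overlapped in none of the 4 comparisons. MiR-150-5p was closer, at 1184, 3646, 2913 and 2931 in WT placebo bone and 7430, 8575, 2231, 9653 and 4316 in serum. Its log2 fold changes were -1.46 (SE 0.45), -1.95 (SE 0.45), -3.13 (SE 0.63) and -1.23 (SE 0.43) for WT placebo, ZDF placebo, WT PTH and ZDF PTH, and its libraries overlapped in WT placebo and ZDF PTH. MiR-150-3p had at most 23 reads in any bone and was at 0 in 2 WT PTH bones. Its log2 fold change was -3.98 (SE 0.65) in WT placebo, -4.57 (SE 0.60) in ZDF placebo and -5.04 (SE 0.74) in WT PTH, the last against libraries of which 2 were at 0. MiR-150-3p entered these fits through its serum reads only, so that its calls are not read as support for a difference.

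MiR-155-5p had few reads in either tissue, with 0 to 27 in a serum library and 0 to 97 in a bone. It was tested in 2 of the tissue comparisons and passed in neither, with log2 fold changes of -0.72 (SE 0.53, FDR = 0.24) in WT placebo and -0.32 (SE 0.39, FDR = 0.45) in ZDF placebo. In WT placebo it passed when serum replicate 2, 3 or 5 was left out (-0.97, -0.82 and -1.02, FDR = 0.12, 0.19 and 0.087), and in ZDF placebo without serum replicate 5 (-0.62, FDR = 0.18). Among 8 other miRNAs known from leukocytes, miR-181a-5p and miR-181b-5p, which are abundant in early lymphocytes and in many solid tissues, were higher in bone in all 4 comparisons (log2 fold changes of 1.98 to 3.28 for miR-181a-5p). MiR-24-3p and miR-27a-3p, of the miR-23/27/24 clusters, were lower in all 4. The whole list had 2, 3, 2 and 2 miRNAs higher and 4, 3, 5 and 2 lower in WT placebo, ZDF placebo, WT PTH and ZDF PTH.

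Within a tissue, the leukocyte miRNAs were tested 72 times over 12 comparisons, 6 in each. Of these tests 4 passed FDR < 0.2 (5.56%, against 77 of 2173, 3.54%, over all miRNAs tested), in 3 comparisons: miR-150-5p and miR-150-3p under insulin in ZDF serum, miR-150-5p under PTH in WT bone, and miR-142-3p in ZDF against WT bone under PTH. All 4 were decreases. In the other 9 comparisons edgeR called none of them. Over all 12 comparisons, 10 of the 72 tests had an unadjusted p under 0.05 in edgeR and DESeq2 called 9, against 232 and 175 over all miRNAs. MiR-155-5p was too scarce to be tested in the 8 serum comparisons, and miR-150-3p in the 4 bone comparisons.

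**Figure D3:**
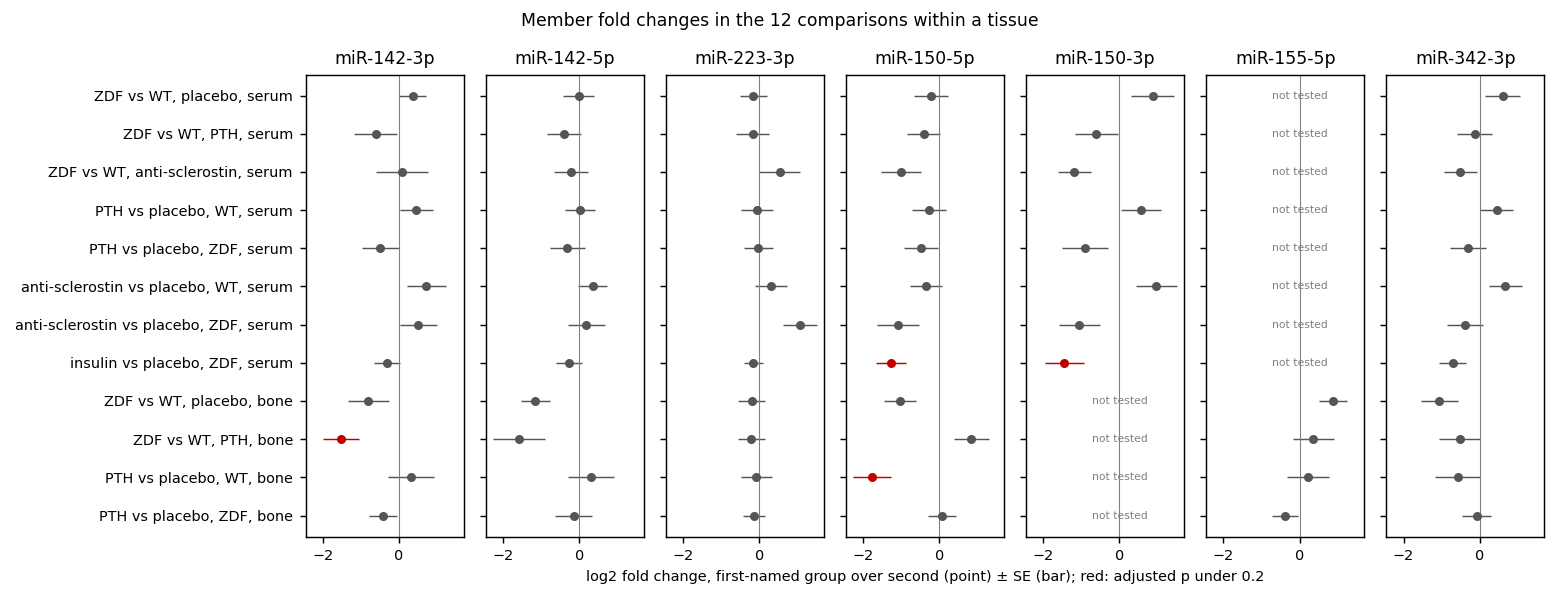
Log2 fold changes (horizontal axis, points) with their standard errors (bars) of the 7 leukocyte miRNAs in the 12 comparisons within serum or bone (vertical axis), where red marks FDR < 0.2 in edgeR. The 4 red points are miR-150-5p and miR-150-3p under insulin, miR-142-3p in ZDF against WT bone under PTH, and miR-150-5p under PTH in WT bone, and all lie left of 0.

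Insulin-treated ZDF rats had lower serum miR-150, the lymphocyte miRNA, in both arms. Levels within a tissue are given as TMM-normalized CPM, reads scaled to the same total after correction for composition. MiR-150-5p was at 2531, 1897, 1493 and 3024 CPM in the 4 insulin sera and at 4469, 7375, 2238, 10236 and 2860 in the 5 ZDF placebo sera. The groups overlapped, with 3 of 5 placebo sera above all insulin sera, and the log2 fold change was -1.27 (SE 0.40, FDR = 0.065). MiR-150-3p was at 137, 181, 219 and 340 CPM under insulin and at 388, 887, 111, 638 and 930 under placebo. One placebo serum was below all insulin sera and the other 4 above, with a log2 fold change of -1.45 (SE 0.51, FDR = 0.095). Both were among 40 of 151 miRNAs that passed, 26.5% (15.2% lower under insulin).

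MiR-342-3p, the other abundant lymphoid miRNA, was at 3951, 2860, 2149 and 3404 CPM under insulin and at 4802, 6638, 3155, 8525 and 2413 under placebo, and missed the threshold with a log2 fold change of -0.71 (SE 0.35, FDR = 0.21). The myeloid miR-223-3p was at 15599 to 16822 CPM in the 4 insulin sera and at 12337 to 23256 in the placebo sera, with a log2 fold change of -0.16 (SE 0.25, FDR = 0.70). MiR-142-3p and miR-142-5p gave -0.32 (SE 0.33) and -0.27 (SE 0.34) and did not pass. The separation of the miR-150 arms from the other members depended on the scaling. With library totals in place of TMM, which moved the median of all miRNAs by -0.313, edgeR called 5 of the 6 as lower. Among them were miR-342-3p (-1.03, FDR = 0.089), miR-142-3p (-0.65, FDR = 0.17) and miR-223-3p (-0.46, FDR = 0.17), whereas miR-142-5p did not pass (-0.58, FDR = 0.25). Since that scaling moved miRNAs in general downward, this count is not read as particular to the leukocyte miRNAs. With TMM, the median log2 fold change of the 6 tested was -0.52, against -0.10 over all miRNAs. Of the 8 other leukocyte miRNAs, 3 were lower: miR-146a-5p, a brake on inflammatory signaling (-1.16, SE 0.34), miR-29a-3p, a regulator of collagen genes (-0.87, SE 0.25), and miR-21-5p, which many cell types express (-0.82, SE 0.26).

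Erythrocyte RNA differed between the same groups. All 4 erythrocyte miRNAs tested were higher under insulin, and their summed share was 23 to 27.3% of miRNA reads in the insulin sera and 9.93 to 16% in the placebo sera. A measure of hemolysis, miR-451-5p over miR-23a-3p as a log2 ratio, was 3.18 to 3.79 under insulin and -0.49 to 1.41 under placebo, without overlap. With this ratio as a covariate no miRNA passed. The change of miR-150-5p was then -1.40 (FDR = 0.83) and that of miR-150-3p turned to 1.297 (SE 1.42, FDR = 0.83). The part of erythrocyte RNA in the insulin result cannot be told apart from that of insulin in these groups. With all serum groups in 1 fit, both arms of miR-150 also missed the threshold, at -1.28 (FDR = 0.26) and -1.43 (FDR = 0.26), and without insulin replicate 3 edgeR called neither, at -1.06 (FDR = 0.27) and -1.37 (FDR = 0.27). MiR-150-3p also lost its call without insulin replicate 1 or placebo replicate 5 (FDR = 0.21 each).

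**Figure D4:**
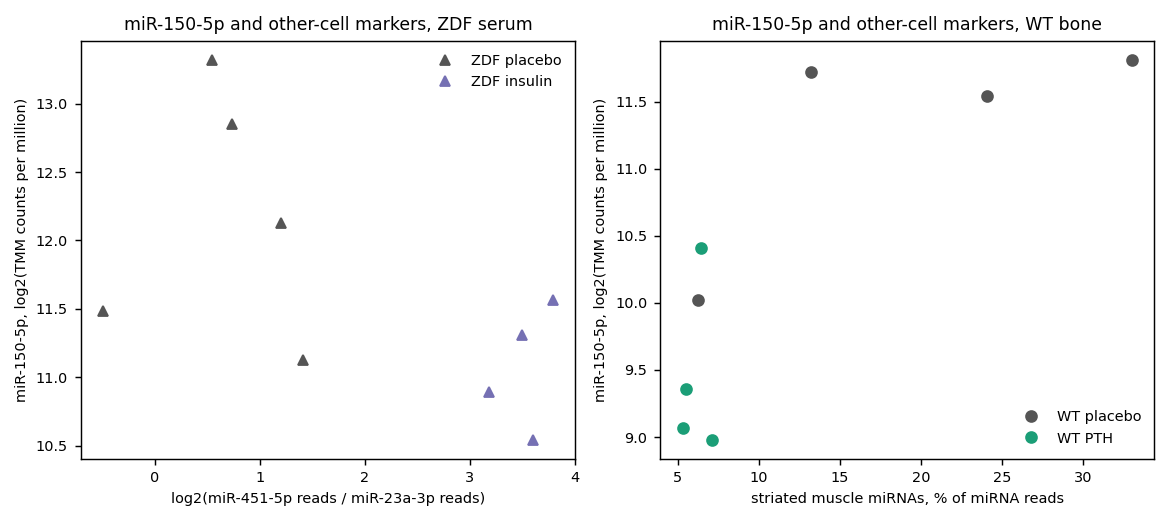
MiR-150-5p as log2 TMM CPM (vertical axes) with 1 point per library, against log2(miR-451-5p/miR-23a-3p) in ZDF serum under placebo and insulin (left) and against the share of striated muscle miRNAs in WT bone under placebo and PTH (right). The insulin sera lie between 3.18 and 3.79 on the hemolysis ratio, apart from all placebo sera, and the WT bone with the lowest miR-150-5p among the placebo bones has 6.27% muscle miRNAs, close to the PTH bones.

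Anti-sclerostin did not move any leukocyte miRNA past the threshold in serum. In ZDF rats 1.27% of the miRNAs tested passed, none of them a leukocyte miRNA. MiR-223-3p was at 7387, 40551, 57775 and 32498 CPM under anti-sclerostin and at 12337, 20985, 23256, 18191 and 13978 under placebo, with 3 of 4 treated sera above all placebo sera (log2 fold change 1.06, SE 0.45, FDR = 0.42). MiR-150-5p was at 1075, 2132, 5249 and 1160 CPM under anti-sclerostin, of which 3 were below all placebo sera (-1.09, SE 0.56, FDR = 0.50). The values of 1075 and 1160 rested on 31 and 47 reads, in libraries of 28015 and 33591 miRNA reads. The others tested gave -1.05 (SE 0.54) for miR-150-3p, -0.38 (SE 0.48) for miR-342-3p, 0.50 (SE 0.49) for miR-142-3p and 0.19 (SE 0.48) for miR-142-5p. DESeq2 called no leukocyte miRNA here, and 1 had an unadjusted p under 0.05. Over all 158 miRNAs tested, DESeq2 called 11 and 14 had an unadjusted p under 0.05. Anti-sclerostin and placebo rats are cited to different original publications, and whether they were kept side by side is not given in the sources used here. In WT rats 0% of the miRNAs passed in edgeR, with 18 at an unadjusted p under 0.05 and 5 called by DESeq2, and no leukocyte miRNA was among them in either count.

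Between ZDF and WT rats under anti-sclerostin 0% passed in edgeR (11 unadjusted, 6 in DESeq2). MiR-150-3p was at 173, 244, 360 and 271 CPM in the ZDF sera and at 563, 868, 371 and 909 in the WT sera. These levels rested on 5, 40, 35 and 11 reads in the ZDF sera and on 41, 81, 59 and 41 in the WT sera. These groups did not overlap, although the margin was small, and the log2 fold change of -1.18 (SE 0.44, FDR = 0.46) missed the threshold in edgeR and passed in DESeq2 (-1.22, FDR = 0.18). The difference between genotypes in the response to anti-sclerostin was tested as an interaction for all 7, and 0% of the miRNAs passed (4 unadjusted, 0 in DESeq2). The largest interaction among the leukocyte miRNAs was that of miR-150-3p at -2.01 (SE 0.80, FDR = 0.82).

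The ratio of miR-150-5p to miR-223-3p sets a lymphoid against a myeloid miRNA within each library, and does not stand for the other lymphoid members. Under anti-sclerostin in WT serum, miR-150-5p gave a log2 fold change of -0.36 (SE 0.42), but miR-150-3p gave 0.97 (SE 0.54) and miR-342-3p 0.67 (SE 0.43). In ZDF serum each of these was lower under anti-sclerostin. The ratio was compared in 16 pairs of groups by a two-sided exact permutation test with adjustment over the 16. The log2 ratio was -1.89 ± 0.98 (SD, n = 5) in ZDF placebo serum, -2.89 ± 0.43 (n = 4) under insulin and -3.82 ± 0.89 (n = 4) under anti-sclerostin. In WT serum it was -1.63 ± 0.68 (n = 5) under placebo and -2.29 ± 0.19 (n = 4) under anti-sclerostin. The difference between anti-sclerostin and placebo was -1.92 in ZDF (exact p = 0.0317, adjusted p = 0.152) and -0.66 in WT (exact p = 0.0476, adjusted p = 0.152), with overlap of the libraries in both. ZDF and WT sera under anti-sclerostin did not overlap, from -4.79 to -2.76 in ZDF and from -2.45 to -2.02 in WT, and differed by -1.53 (exact p = 0.0286, the smallest that 4 against 4 can give, adjusted p = 0.152).

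Insulin against placebo gave -1.001 (exact p = 0.0952, adjusted p = 0.190) for this ratio. PTH against placebo in serum gave differences of -0.33 in WT (exact p = 0.492, adjusted p = 0.703) and -0.18 in ZDF (exact p = 0.714, adjusted p = 0.762). ZDF and WT sera differed by -0.26 under placebo (exact p = 0.643, adjusted p = 0.735) and -0.11 under PTH (exact p = 0.786, adjusted p = 0.786). Thus 4 of 8 serum comparisons, the 3 with anti-sclerostin and the one with insulin, had an adjusted p under 0.2, and comparisons with the same placebo group are not independent of each other. With each library left out in turn, the 3 with anti-sclerostin stayed under 0.2 in all fits, whereas insulin did so in 2 of 9, without placebo replicate 3 and without insulin replicate 4. For ZDF against WT under anti-sclerostin this says little, since groups without overlap stay apart whichever library is left out.

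**Figure D5:**
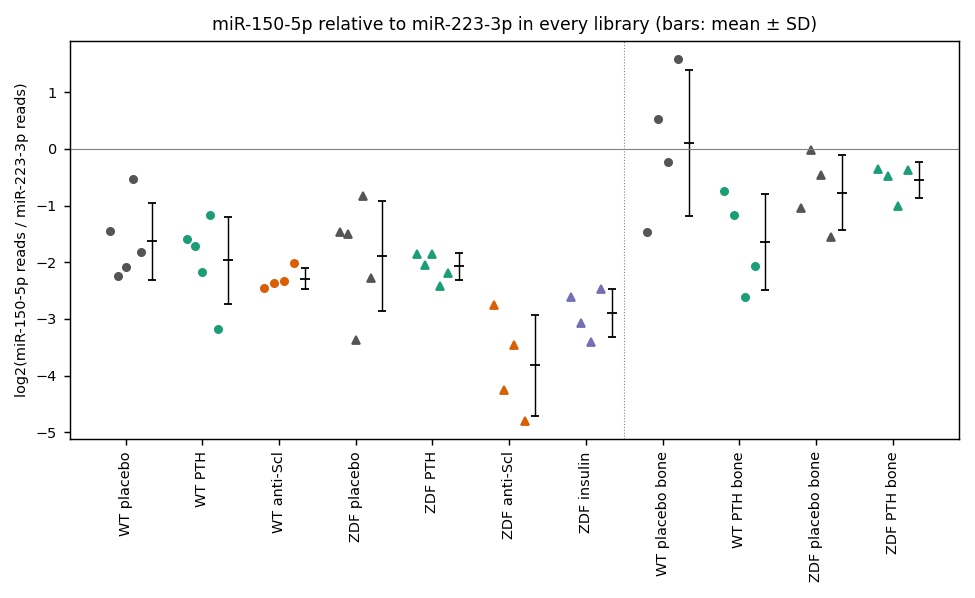
Log2 ratio of miR-150-5p to miR-223-3p reads (vertical axis) in each library by group (serum left and bone right of the dotted line), with bars for mean ± SD. ZDF sera under anti-sclerostin have the lowest mean. They range from -4.79 to -2.76 and overlap with sera of other groups. The only libraries above 0 are 2 WT placebo bones.

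EdgeR called no leukocyte miRNA in the serum comparisons of PTH with placebo, or of ZDF with WT under placebo or PTH. Under placebo 6.1% of the miRNAs differed between ZDF and WT sera. Of the 6 leukocyte miRNAs tested, none was called by edgeR or DESeq2 and none had an unadjusted p under 0.05. With so few tested, this is not apart from the share over all miRNAs. Their log2 fold changes ranged from -0.23 (SE 0.44) for miR-150-5p to 0.88 (SE 0.57) for miR-150-3p. Under PTH, 0% passed between the genotypes (5 unadjusted, 0 in DESeq2). PTH against placebo gave 0% in WT sera (2 unadjusted, 0 in DESeq2) and 0% in ZDF sera (4 unadjusted, 0 in DESeq2). The interaction of PTH and genotype in serum also gave 0% (8 unadjusted, 0 in DESeq2). Standard errors were 0.38 to 0.60 on the log2 scale in the comparisons of PTH with placebo, which bounds the changes that could be detected.

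In WT bone, miR-150-5p was lower under PTH than under placebo. It was at 1357, 655, 536 and 505 CPM in the 4 PTH bones and at 1038, 3380, 2986 and 3597 in the 4 placebo bones. In this comparison 3 placebo bones were above all PTH bones and 1 was within their range, and the log2 fold change was -1.76 (SE 0.50, FDR = 0.14). It was 1 of 12 miRNAs that passed, 5.41% (5.41% lower, since all 12 were decreases). MiR-142-3p (0.32, SE 0.60), miR-142-5p (0.31, SE 0.61), miR-223-3p (-0.07, SE 0.41), miR-155-5p (0.22, SE 0.54) and miR-342-3p (-0.58, SE 0.60) did not pass, and the median of the 6 tested was 0.07, against -0.06 over all miRNAs.

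Depth and muscle RNA also differed between these bones. The PTH bones had 41627 to 282285 miRNA reads and the placebo bones 195045 to 952131, and miR-150-5p rested on 68, 25, 98 and 178 reads in the PTH bones. Striated muscle miRNAs took 6.47, 5.51, 5.32 and 7.14% of the reads in the PTH bones and 6.27, 13.2, 24.1 and 33% in the placebo bones. The placebo bone with 6.27% was the one with 1038 CPM of miR-150-5p. The part of muscle RNA in this result was not tested beyond leaving the erythrocyte and muscle miRNAs out of the normalization, after which the change was -1.73 (FDR = 0.16). The call was lost when any of placebo replicates 2, 3 or 4 or PTH replicates 1 or 2 was left out (-2.19 to -1.60, FDR of 0.21 to 0.47), and kept without placebo replicate 1 (-2.03, FDR = 0.017).

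In ZDF bone, PTH gave no such difference. MiR-150-5p was at 1321, 1284, 894 and 2031 CPM under PTH and at 801, 2011, 1684 and 985 under placebo, with a log2 fold change of 0.06 (SE 0.36, FDR = 0.96). In this comparison 0% of the miRNAs passed in edgeR (13 unadjusted, 1 in DESeq2), and none of the leukocyte miRNAs by either tool or at an unadjusted p under 0.05. The interaction of PTH and genotype in bone was 1.88 for miR-150-5p (SE 0.64, FDR = 0.53), and 0% of all miRNAs passed it (13 unadjusted, 1 in DESeq2), so that a difference between genotypes in the response was not shown.

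ZDF bones had lower miR-142-3p than WT bones under PTH. It was at 653, 535, 861 and 1151 CPM in the ZDF bones and at 2794, 2357, 3089 and 886 in the WT bones. The ranges overlapped through 1 library of each group, and the log2 fold change was -1.52 (SE 0.46, FDR = 0.19). It was the 1 decrease among the 7 miRNAs that passed, 3.27% of those tested (0.467% lower). MiR-142-5p from the same hairpin was at 61.2, 54.7, 178 and 201 CPM in the ZDF and at 459, 707, 257 and 90.9 in the WT bones, with a similar fold change of -1.59 but a larger error (SE 0.68, FDR = 0.32). DESeq2 called both, at FDR = 0.033 and 0.19. Over all 214 miRNAs tested, 31 had an unadjusted p under 0.05 in edgeR and DESeq2 called 24.

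The call of miR-142-3p was near the threshold and was lost without any one of ZDF replicates 1, 2 or 3 or WT replicates 1, 2 or 3 (-1.59 to -1.34, FDR of 0.23 to 0.64). The ZDF PTH bones had 191926 to 971036 miRNA reads and the WT PTH bones 41627 to 282285. MiR-142-5p rested on 24, 13, 32 and 211 reads in the ZDF PTH bones and on 23, 27, 47 and 32 in the WT PTH bones. Striated muscle miRNAs took 11.5 to 17.7% of the reads in the ZDF PTH bones and 5.32 to 7.14% in the WT PTH bones, without overlap. The part of muscle RNA here was not tested beyond the fit without the erythrocyte and muscle miRNAs (-1.52, FDR = 0.19). The other leukocyte miRNAs did not pass, with 0.84 (SE 0.46, FDR = 0.38) for miR-150-5p and -0.21 (SE 0.35, FDR = 0.79) for miR-223-3p. MiR-342-3p, also lymphoid, gave -0.53 (SE 0.54, FDR = 0.67) and miR-155-5p 0.36 (SE 0.54, FDR = 0.78).

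Under placebo, 2.55% of the miRNAs differed between ZDF and WT bones, and edgeR called no leukocyte miRNA among them although 3 had an unadjusted p under 0.05 and DESeq2 called 3. Over all 235 miRNAs tested, 41 had an unadjusted p under 0.05 and DESeq2 called 35. MiR-142-5p was at 199, 118, 122 and 136 CPM in the ZDF bones and at 418, 324, 357 and 153 in the WT bones, just outside the threshold (log2 fold change -1.15, SE 0.38, FDR = 0.205). One WT bone lay within the range of the ZDF bones. MiR-150-5p gave -1.03 (SE 0.43, FDR = 0.25) and miR-342-3p -1.06 (SE 0.49, FDR = 0.29), and DESeq2 called these 3. MiR-155-5p went the other way, at 117, 87.7, 79.2 and 84.4 CPM in the ZDF and 22.5, 59.5, 57.1 and 52.8 in the WT bones. Its groups did not overlap, but the counts were 5 to 97 reads and the log2 fold change of 0.88 (SE 0.36, FDR = 0.25) did not pass. The median of the 6 tested was -0.92, against -0.05 over all miRNAs, with 1 positive.

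In bone the ratio of miR-150-5p to miR-223-3p was 0.10 ± 1.29 (SD, n = 4) in WT placebo, -1.65 ± 0.85 in WT PTH, -0.77 ± 0.67 in ZDF placebo and -0.55 ± 0.31 in ZDF PTH on the log2 scale (n = 4 each). PTH against placebo gave a difference of -1.75 in WT bone at an exact p = 0.0857 (adjusted p = 0.190), and ZDF exceeded WT by 1.10 under PTH (exact p = 0.0571, adjusted p = 0.152). It was higher in bone than in serum by 1.73 in WT placebo (exact p = 0.0476, adjusted p = 0.152) and by 1.52 in ZDF PTH (exact p = 0.0159, adjusted p = 0.152), where the tissues did not overlap. The remaining bone comparisons were a difference of -0.87 between ZDF and WT placebo (exact p = 0.286, adjusted p = 0.457) and of 0.22 between PTH and placebo in ZDF (exact p = 0.543, adjusted p = 0.703). Against serum, bone was higher by 1.12 in ZDF placebo (exact p = 0.111, adjusted p = 0.198) and by 0.32 in WT PTH (exact p = 0.571, adjusted p = 0.703). With each library left out in turn, an adjusted p under 0.2 was kept in 1 of 8 fits for PTH in WT bone, in 2 of 8 for ZDF against WT under PTH, and for bone against serum in 6 of 9 in WT placebo, 2 of 9 in ZDF placebo and 9 of 9 in ZDF PTH. In ZDF PTH this says little, since tissues without overlap stay apart whichever library is left out.

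As a description, Spearman's rho of log2(TMM CPM + 1) over the 32 sera was 0.74 for miR-142-3p with miR-223-3p, 0.70 for miR-150-5p with miR-342-3p and 0.62 for the arms of miR-142. Taken as deviations from the group medians, these were 0.77, 0.77 and 0.59. Over the 16 bones the arms of miR-142 gave 0.83, whereas miR-150-5p gave -0.29 with miR-142-3p and 0.08 with miR-223-3p. These libraries share depth and composition effects, and the coefficients carry no test.

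By the same measure, the other miRNAs most like each leukocyte miRNA were found among 191 in serum and 237 in bone. In serum, miR-142-3p was most like miR-205 (rho = 0.72) and miR-155-5p like miR-375-3p (0.70). MiR-142-5p was most like miR-7a-1-3p (0.85) there, miR-223-3p like miR-130b-3p (0.80), miR-342-3p like miR-423-5p (0.79) and both arms of miR-150 like miR-139-5p (0.73 for 5p and 0.77 for 3p). In bone, both arms of miR-142 were most like miR-18a-5p of the miR-17-92 cluster (0.91 for 3p and 0.82 for 5p), and miR-223-3p was most like the erythrocyte miR-451-5p (0.84). MiR-150-5p was most like miR-30b-5p (0.80), miR-150-3p like miR-196b-5p (0.73) and miR-155-5p like miR-539-5p (0.88). MiR-342-3p was most like the cartilage miR-140-3p (0.85), followed by the muscle miR-133b-3p (0.84).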

How the data were processed

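Small RNA of 32 serum and 16 ulna bone samples was sequenced by the authors with a RealSeq-Biofluids library kit. Per the labels and the study's methods, they trimmed reads with cutadapt, mapped them with Bowtie and miRDeep2 to Rnor 6.0 and then to miRBase, and deposited whole-number read counts per mature miRNA without normalization, which are the only values used here. Rows of 10 added control RNAs were left out. Depth was 28015 to 205664 miRNA reads per serum and 41627 to 1398702 per bone library.

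Testing was done in R 4.3.3 on these counts, with the quasi-likelihood test of edgeR 4.0.16 (TMM, filterByExpr, only the compared groups in a fit, two-sided, Benjamini-Hochberg adjustment over all miRNAs tested, threshold 0.2). The study's methods name the same test with independent filtering. Earlier simulations on these data gave false calls when all miRNAs with at least 1 read were fitted, so that low counts were removed with filterByExpr here and independent filtering was run as an alternative. The 7 miRNAs, the lists and this choice were made with earlier results of these data known. Other alternatives were DESeq2 1.42.0, other scalings and filters, a threshold of 0.05, a hemolysis covariate and each replicate left out. The standard errors (SE) given with edgeR results are the absolute log2 fold change divided by the square root of the F statistic of the test. Group mean log2 ratios (pseudocount 0.5) were compared by exact permutation in scipy 1.17.1. The tests were also run on simulated data with known changes. The 7 miRNAs were tested in each comparison in which they passed filterByExpr, and reported in counts and ranges where not named, with the 2 other miRNAs most correlated with each per tissue, of which the leading ones are printed, and fixed marker lists; arm ratios over all hairpins were chosen after values were seen. Replicates are separate rats per the study's methods, and p-values measure the spread between these samples. Reads carry no molecular identifiers, so that counting error understates the true error.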

Additional observations from a re-analysis of the deposited data

Results flagged for a closer look

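In 77 sets of 4 or 5 libraries (7 miRNAs in 11 groups), the library farthest from its group was compared with the spread of the group by Dixon's test on log2 TMM CPM (as in the report), and 5 stood apart at the 95% level. Chance gives about 1 in 20 such sets. MiR-142-5p was at 9928 CPM in 1 WT PTH serum (replicate 5), above 3852 to 4745 in the others. MiR-342-3p was at 4236 CPM in 1 WT anti-sclerostin serum (replicate 3), below 6054 to 6452. MiR-223-3p was at 2614 CPM in 1 ZDF PTH bone (replicate 4), above 1682 to 1799. In WT placebo bone, replicate 1 was low in both miR-150-5p (1038 CPM, against 2986 to 3597) and miR-155-5p (22.5 CPM, against 52.8 to 59.5). The same bone had 4156 CPM of miR-142-3p and the lowest muscle share of its group. None of the 19 interactions of treatment and genotype tested among the leukocyte miRNAs passed FDR < 0.2 in edgeR, with 2 at an unadjusted p under 0.05 and 0 called by DESeq2.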

How the results depend on the processing

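The count of leukocyte miRNAs that passed FDR < 0.2 changed with the processing in several comparisons, as follows. DESeq2 called 1 in ZDF against WT serum under anti-sclerostin (main count 0), 3 in ZDF against WT placebo bone (0) and 2 in ZDF against WT PTH bone (1). With RLE size factors the placebo bones gave 1. Library totals, which moved the median of all miRNAs by -0.313 under insulin, gave 5 there in place of 2. Fitting all miRNAs with at least 1 read gave 1 for anti-sclerostin in ZDF serum (0). Adding independent filtering to that fit gave 2 there, 2 in placebo bone, 2 in PTH bone, and 1 each (0) for the interactions with genotype of anti-sclerostin in serum and of PTH in bone. Independent filtering after filterByExpr gave 2 in placebo bone. All groups in 1 fit, the hemolysis covariate and an FDR threshold of 0.05 each left 0 under insulin, and that threshold also left 0 in ZDF against WT PTH bone and under PTH in WT bone. With the hemolysis covariate miR-150-3p under insulin turned to 1.297 (SE 1.42), and the hemolysis ratio itself does not overlap between these groups. The cause of these changes was not tested.

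With each replicate left out in turn, the counts ranged from 0 to 3 under insulin, 0 to 2 under PTH in WT bone, 0 to 2 in ZDF against WT PTH bone, 0 to 4 in ZDF against WT placebo bone, and 0 to 1 in ZDF against WT placebo serum, under anti-sclerostin in WT and in ZDF serum, and for the interaction of PTH in bone. The log2 ratio of miR-150-5p to miR-223-3p kept its direction and its side of an adjusted p of 0.2 with a pseudocount of 1 in all 16 comparisons. Without each replicate it ranged from -1.371 to -0.7348 for insulin, 0.7774 to 1.4 for ZDF against WT PTH bone, -1.395 to -0.3747 for ZDF against WT placebo bone, -2.272 to -1.252 for PTH in WT bone and -0.03789 to 0.4719 for PTH in ZDF bone. In serum it ranged from -0.5293 to 0.1072 for ZDF against WT placebo, -0.4116 to 0.0898 for ZDF against WT PTH and -0.5501 to 0.08642 for PTH in ZDF. Bone against serum ranged from 1.233 to 2.253 in WT placebo and 0.7507 to 1.387 in ZDF placebo. An adjusted p under 0.2 was lost in 7 of these fits for insulin, 7 for PTH in WT bone, 6 for ZDF against WT PTH bone, 7 for bone against serum in ZDF placebo and 3 in WT placebo. A change of sign of a value that passed in neither fit was not counted as a reversal. Library totals moved the median of all miRNAs by -0.313 under insulin, -0.144 in ZDF against WT PTH bone, -0.119 in the interaction of PTH in bone and -0.254 to 0.341 between bone and serum. Leaving out marker miRNAs moved it by -0.164 for anti-sclerostin in ZDF and -0.18 for bone against serum in ZDF placebo, and RLE by -0.126 in the interaction of anti-sclerostin. Every difference of a leukocyte miRNA between bone and serum that passed kept its direction and its call in all alternatives run. No paired analysis was possible because no label gives a replicate number shared between groups or links a bone with a serum; the replicate numbers used here follow the order of the samples and only name libraries. Depth limits miR-155-5p in serum and miR-150-3p in bone most.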
